A study of Mus musculus with 8 samples.

Results

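The genes described here are 56 mouse genes for molecular chaperones, the co-chaperones that regulate them and 2 heat shock transcription factors, measured in liver after repeated furan dosing. The genes were chosen by symbol, from their known roles and with earlier results of these data known. Their array probes were found through the RefSeq accession of each probe. Of the 56 genes, 54 had a probe on the array and 53 could be tested, among 24921 genes or transcripts tested in all. Hspa1b and Dnajb5 had no probe, and the Hspa12a probe was well above background on 1 vehicle array and 0 furan arrays, so it was not tested. The set goes by the name of cytosolic chaperones, but 5 of its members work in mitochondria (Hspa9, Hspd1, Hspe1, Trap1 and Dnaja3).

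Chaperones bind unfolded stretches of other proteins, hold them in solution and help them fold. HSP70 proteins do this in cycles of ATP hydrolysis that J proteins (HSP40) start and nucleotide exchange factors (HSP110 and BAG proteins) end, HSP90 acts on nearly folded clients such as steroid receptors and kinases, and small heat shock proteins hold aggregating proteins without ATP. When unfolded or chemically damaged proteins build up, heat shock factor 1 binds heat shock elements, which are inverted repeats of the unit GAA, and raises transcription of many chaperone genes.

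Furan is a volatile compound formed in heated food, and in hepatocytes CYP2E1 turns it into a reactive dialdehyde that binds proteins. The labels describe a study of how transcription in the liver responds to it. Female B6C3F1 mice, bought at 5 to 6 weeks of age and acclimatised for at least 7 days, were gavaged for 21 days with furan at 8 mg per kg body weight in corn oil or with corn oil alone, and tissue was collected 4 hours after dosing ended. The 4 vehicle livers (replicates 2, 3, 4 and 6) and the 4 furan livers (replicates 41, 42, 43 and 44), described as biological replicates, were each hybridised to 1 array of a single-colour Agilent slide.

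Each array held 59305 probe spots, and 0 were saturated. Vehicle replicate 2 stood apart from the others before any comparison: 86.2% of its probe spots were well above background against 55.1 to 69.4% on the other 7 arrays, and its median processed signal was 130 against 32.5 to 48.2. Of 51 markers of liver and other cell types, 43 were tested and 0 passed the threshold in limma with Benjamini-Hochberg adjustment over all genes tested, while 1 was higher and 6 were lower at an unadjusted p under 0.05. The higher one was stellate Col1a1 (0.51, adjusted p = 0.149). The lower ones were endothelial Pecam1 (-0.39, adjusted p = 0.055) and Stab2 (-0.48, adjusted p = 0.0687), exocrine Cela2a (-1.06, adjusted p = 0.0688) and Ctrb1 (-0.48, adjusted p = 0.103), hepatocyte Pck1 (-0.32, adjusted p = 0.156) and lymphocyte Cd79a (-0.41, adjusted p = 0.172), and all but Cd79a had every furan array below every vehicle array. Of all genes tested, 12.3% were higher and 11.5% lower at that unadjusted p, and 7.36% had every furan array below every vehicle array. The part of these markers in the results on chaperone genes was not tested. The 9 hepatocyte markers, albumin among them, were above background on all 8 arrays. In whole liver, fewer cells of a type and less RNA per cell cannot be told apart. Levels below are log2 processed signals minus the 75th percentile of the same array. They are given in the order of the replicate numbers above, differences are furan minus vehicle on that scale, and levels of different genes cannot be compared.

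To show what the promoters of the members hold, 2 forms of the heat shock element were searched for from 250 bases before to 50 bases after each RefSeq transcription start (build GRCm38.p6). The unit is GAA or its reverse complement TTC, the units alternate, and any 2 bases lie between neighbouring units. The 3-unit form was thus GAA, TTC, GAA or TTC, GAA, TTC, and the 2-unit form, which every 3-unit match also contains, was GAA, TTC or TTC, GAA. The 3-unit patterns are each other's reverse complements and each 2-unit pattern is its own, so both strands were covered. A promoter was found for 45 of the 56 members. The 3-unit form was in 5 of these 45 (11.1%) and in 179 of 27025 genes with a promoter (0.662%). The 2-unit form was in 18 of the 45 (40.0%) against 4587 of the 27025 (17.0%). The stretches below hold the 3-unit matches of Chordc1, Hsph1, Dnajb6 and the shared promoter of Hspe1 and Hspd1, then the 2-unit matches of Hspb1, Dnaja1, Cct5 and Bag3, and then those of the paired genes Hspa1a and Hspa1b. Each is written 5′ to 3′ on the strand of the gene, from RefSeq, with the matches in capitals.
Chordc1, chr9:18292260-18292288, + strand: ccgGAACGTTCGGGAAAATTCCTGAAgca
Hsph1, chr5:149636287-149636316, - strand: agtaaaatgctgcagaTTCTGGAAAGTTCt
Hspe1, chr1:55087933-55088147, + strand: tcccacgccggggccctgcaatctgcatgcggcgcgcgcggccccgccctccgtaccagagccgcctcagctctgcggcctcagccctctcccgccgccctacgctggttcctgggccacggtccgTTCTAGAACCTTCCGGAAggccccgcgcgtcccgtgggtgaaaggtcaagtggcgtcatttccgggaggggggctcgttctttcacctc
Dnajb6, chr5:29735838-29735877, + strand: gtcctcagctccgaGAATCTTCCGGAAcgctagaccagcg
Hspb1, chr5:135887769-135887868, + strand: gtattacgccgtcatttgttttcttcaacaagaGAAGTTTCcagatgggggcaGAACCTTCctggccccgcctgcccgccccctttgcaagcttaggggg
Dnaja1, chr4:40722318-40722417, + strand: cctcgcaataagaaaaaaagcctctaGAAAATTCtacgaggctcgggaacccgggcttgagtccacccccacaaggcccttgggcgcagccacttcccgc
Cct5, chr15:31601847-31601946, - strand: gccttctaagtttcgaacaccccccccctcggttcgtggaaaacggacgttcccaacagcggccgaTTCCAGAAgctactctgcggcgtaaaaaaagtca
Bag3, chr7:128523603-128523632, + strand: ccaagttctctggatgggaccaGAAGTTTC
Hspa1a, chr17:34972207-34972306, - strand: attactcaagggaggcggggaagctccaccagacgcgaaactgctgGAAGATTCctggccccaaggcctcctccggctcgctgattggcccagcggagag
Hspa1b, chr17:34959289-34959388, - strand: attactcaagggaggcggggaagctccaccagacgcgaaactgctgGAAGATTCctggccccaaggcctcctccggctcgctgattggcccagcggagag

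The Chordc1 stretch runs from 7 bases before to 22 bases after the start and holds overlapping matches in 1 continuous array. The Hspe1 stretch is the whole 215 bases between the starts of the head-to-head genes Hspe1 and Hspd1, so its 1 array lies in the promoter window of both. The Hsph1 and Bag3 stretches lie from 21 to 50 bases after the start, within the transcribed region. The promoters of Hspa1a and Hspa1b were the same at 296 of 300 bases and at all 100 bases printed. A match describes these letters only and does not show that a factor was bound.

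Of the 53 tested members, 9 rose with furan and 0 fell at an adjusted p under 0.05 (limma, Benjamini-Hochberg over all 24921). These were Hspb1, Hsp90aa1, Hspa4l, Hsph1, Chordc1, Dnaja1, Bag3, Cct5 and St13, with changes from 1.27-fold (St13) to 3.32-fold (Hspb1). When arrays in the same slide column, 1 of each group, were paired in the fit, 0 of the 9 passed, and the smallest adjusted p of any member was 0.0959. The share that rose was 17.0% of the tested members, beside 2.87% of all genes tested that rose and 1.31% that fell. That is 714 genes higher and 327 lower, a split that moved with the scaling of the arrays: 84 and 1 with a shift to the array median, 230 and 31 with no shift, and 631 and 673 with a shift by the mean of the brightest 25% of genes. On all 4 furan arrays 23 members were above all 4 vehicle arrays, beside 10.8% of all tested, and 1 (Bag4) was below all of them, beside 7.36%. At an unadjusted p under 0.05, 29 members were higher and 1 lower, where all genes tested gave 12.3% and 11.5%. The difference was positive for 48 of 53 members (90.6%) and for 39.8% of all genes tested, and its median was 0.30 among the members and -0.09 among all. Under 4 other scalings of the arrays, 43 to 52 members had a positive difference.

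Most members are bright on the array: 50 of the 53, and all 9 that rose, were in the brighter 50% of the genes tested. In that brighter part the median difference was 0.06, 59.9% of differences were positive, 4.61% of genes rose, 1.45% fell and 18.4% were higher on every furan array than on every vehicle array. Among the members, positive deviations were not confined to 1 furan liver. Replicates 41, 42, 43 and 44 lay above the vehicle mean for 48, 44, 47 and 44 of the 53 members, and 38 members were above it on all 4. The same counts over all genes are not given, so these counts have no background share beside them. Without vehicle replicate 2 the median difference of the members was 0.27, and 8 members passed, of which 6 were among the 9. Dnajb4 (0.57, adjusted p = 0.0372) and Dnajc2 (0.62, adjusted p = 0.0353) then passed as well, and Bag3, St13 and Cct5 did not. Fewer passed when any other array was left out: 5 without vehicle replicate 3, 4 without vehicle replicate 4, 5 without vehicle replicate 6, 2 without furan replicate 41, 4 without furan replicate 42, 2 without furan replicate 43 and 4 without furan replicate 44. Shifting each array to its median instead of its 75th percentile moved the median of all genes from -0.09 to 0.39 and that of the members from 0.30 to 0.78, with 52 of 53 members positive and 1, Hspb1, passing.

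**Figure D1:**
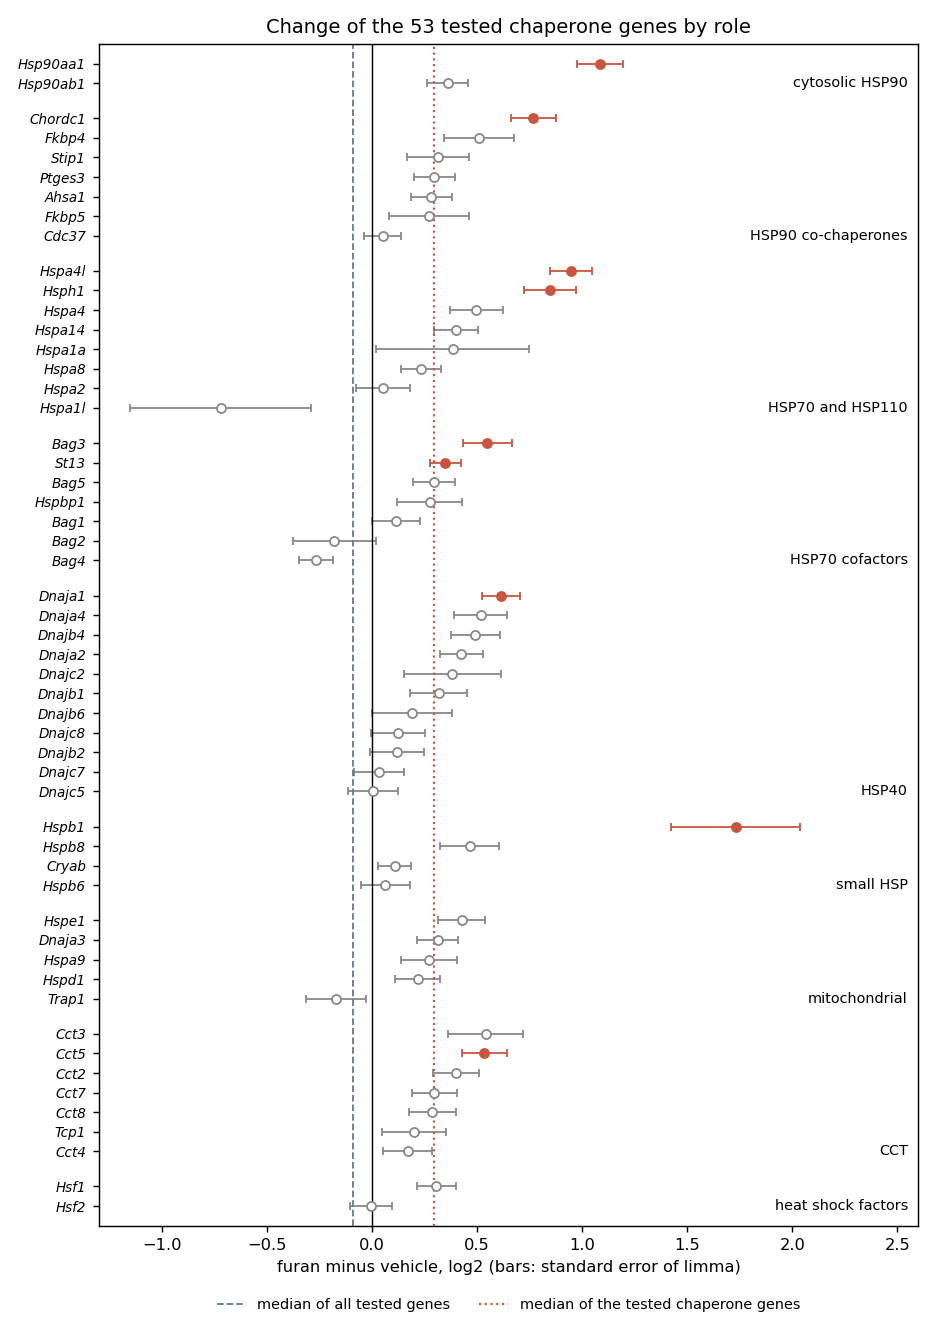
The plot shows the furan minus vehicle difference (log2, horizontal axis) of each of the 53 tested members with its standard error, grouped by role; filled red points passed an adjusted p of 0.05. The dashed line is the median of all genes tested (-0.09) and the dotted line that of the members (0.30), and 48 of the 53 points lie to the right of 0.

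Cytosolic HSP90 is made from a pair of genes, and 1 of them, the inducible one, rose. Hsp90aa1, the stress-inducible HSP90 alpha, was at 3.95, 4.01, 3.97 and 3.71 on the vehicle arrays and at 4.94, 4.82, 5.09 and 5.13 on the furan arrays. The groups did not overlap, and the gap between them was wider than the spread within either. Hsp90aa1 rose by 1.08 ± 0.11 (log2, SE, n = 4 per group), or 2.12-fold (adjusted p = 0.00576), and it passed without each of the 8 arrays in turn. Hsp90ab1, the constitutive HSP90 beta, was at 7.46, 7.60, 7.32 and 7.49 with vehicle and at 7.70, 7.78, 7.94 and 7.90 with furan. Its groups did not overlap either, but its difference of 0.36 ± 0.10 (95% interval 0.14 to 0.59) missed the adjusted threshold (adjusted p = 0.0779).

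HSP90 co-chaperones choose clients for HSP90 and pace its ATP cycle. Of the 7 tested, 1 rose and all 7 differences were positive, with a median of 0.30. Chordc1, a zinc-binding HSP90 partner also called morgana, was at 1.91, 1.89, 1.75 and 2.13 with vehicle and at 2.85, 2.62, 2.64 and 2.64 with furan. All 4 furan livers lay above all vehicle livers, with furan replicate 41 the highest. It rose 1.70-fold (0.77 ± 0.11, adjusted p = 0.015). Its adjusted p was 0.0503 without furan replicate 41 and 0.0518 without furan replicate 43. Fkbp4, an immunophilin of steroid receptor complexes, differed by 0.51 ± 0.17 (adjusted p = 0.121), Ptges3, the p23 that closes the HSP90 clamp, by 0.30 ± 0.10 (adjusted p = 0.126), and Ahsa1, which activates the HSP90 ATPase, by 0.28 ± 0.10 (adjusted p = 0.135). These 3 also had groups that did not overlap. Stip1 (HOP), which joins HSP70 to HSP90, differed by 0.31 ± 0.15, Fkbp5 by 0.27 ± 0.19 and Cdc37, the kinase-specific co-chaperone, by 0.05 ± 0.09, all with overlapping groups. The difference of Cdc37 was -0.01 with quantile normalization and -0.04 with a shift by the brightest 25% of genes.

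Among HSP70 and HSP110 genes, 2 of the 8 tested rose, and both encode HSP110-type proteins, which exchange nucleotide on HSP70. Hspa4l was at 0.55, 0.58, 0.61 and 0.31 with vehicle and at 1.44, 1.37, 1.60 and 1.43 with furan. Every furan value was more than 0.7 above every vehicle value. The rise was 1.93-fold (0.95 ± 0.10, adjusted p = 0.00603) and passed without each of the 8 arrays in turn. Hsph1 (HSP105) was at 3.31, 3.50, 3.12 and 3.36 with vehicle and at 4.27, 3.96, 4.36 and 4.10 with furan, again without overlap. It rose 1.80-fold (0.85 ± 0.12, adjusted p = 0.0156). The adjusted p of Hsph1 was 0.0567 without furan replicate 41 and 0.0538 without furan replicate 43. The third HSP110 gene, Hspa4, had groups that did not overlap and a difference of 0.50 ± 0.12 (adjusted p = 0.0657).

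The values of Hspa1a, the inducible HSP70 gene, spread widely within both groups, and its probe was dim (mean level -2.66). Hspa1a was at -1.89, -3.27, -3.34 and -2.93 with vehicle and at -1.84, -2.81, -2.39 and -2.85 with furan. Vehicle replicate 2 and furan replicate 41 were the highest of their groups, and the groups overlapped. The difference was 0.38 ± 0.36 (95% interval -0.46 to 1.23, adjusted p = 0.507), an interval that includes both no difference and the rise of Hsp90aa1. It was 0.71 without vehicle replicate 2 (adjusted p = 0.163), and 0.25 without vehicle replicate 3 (adjusted p = 0.699), 0.22 without vehicle replicate 4 (adjusted p = 0.729) and 0.17 without furan replicate 41 (adjusted p = 0.807). The size and error of the Hspa1a difference also moved with the processing. It was 0.82 ± 0.22 with quantile normalization (adjusted p = 0.0921) and 0.87 ± 0.37 with a shift to the array median (adjusted p = 0.5). With normexp background correction it was 0.40 ± 0.13 (adjusted p = 0.133), and with a shift by the brightest genes 0.30 ± 0.39 (adjusted p = 0.613). Hspa1a passed in 0 of 14 other settings. Whether the Hspa1a probe also reads the near-identical Hspa1b was not tested. Hspa8, the constitutive HSC70, was at 7.89, 7.99, 7.83 and 8.09 with vehicle and at 8.15, 8.32, 8.09 and 8.18 with furan, so that the highest vehicle and the lowest furan liver met. Its difference was 0.23 ± 0.09 (adjusted p = 0.186). Hspa14, a ribosome-associated HSP70, differed by 0.40 ± 0.10 without overlap (adjusted p = 0.0702) and Hspa2, an HSP70 best known from testis, by 0.05 ± 0.13. The dim Hspa1l had the only negative difference of the group, -0.72 ± 0.43 (adjusted p = 0.326), which was -0.34 without vehicle replicate 2.

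Of the 7 HSP70 cofactors, 2 rose. Bag3, which links HSP70 and small heat shock proteins to selective autophagy, was at 2.64, 2.64, 2.54 and 2.67 with vehicle and at 3.49, 3.08, 3.11 and 3.01 with furan. The vehicle livers lay within a narrow band, and all furan livers lay above it. The rise was 1.46-fold (0.55 ± 0.12, adjusted p = 0.0454). St13, the HSP70-interacting protein HIP that slows release of ADP, was at 3.91, 3.99, 4.00 and 3.94 with vehicle and at 4.33, 4.33, 4.25 and 4.34 with furan. It had the smallest rise of the 9, 1.27-fold (0.35 ± 0.07, adjusted p = 0.0417), with little spread in either group and no overlap. Neither call held when any 1 of the 8 arrays was left out: without vehicle replicate 2, 3, 4 or 6 or furan replicate 41, 42, 43 or 44, adjusted p ran from 0.0637 to 0.106 for Bag3 and from 0.0622 to 0.117 for St13. Bag4, a BAG protein that also binds death receptors, was at 0.42, 0.59, 0.48 and 0.48 with vehicle and at 0.29, 0.22, 0.27 and 0.13 with furan. It was the only member whose furan values all lay below the vehicle values, with a difference of -0.27 ± 0.08 (adjusted p = 0.104). With a shift to the array median it was 0.22. Bag5 differed by 0.29 ± 0.10, Hspbp1 by 0.27 ± 0.16, Bag1 by 0.11 ± 0.11 and Bag2 by -0.18 ± 0.20, none past the threshold. The difference of Bag2 was 0.30 with a shift to the array median.

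**Figure D2:**
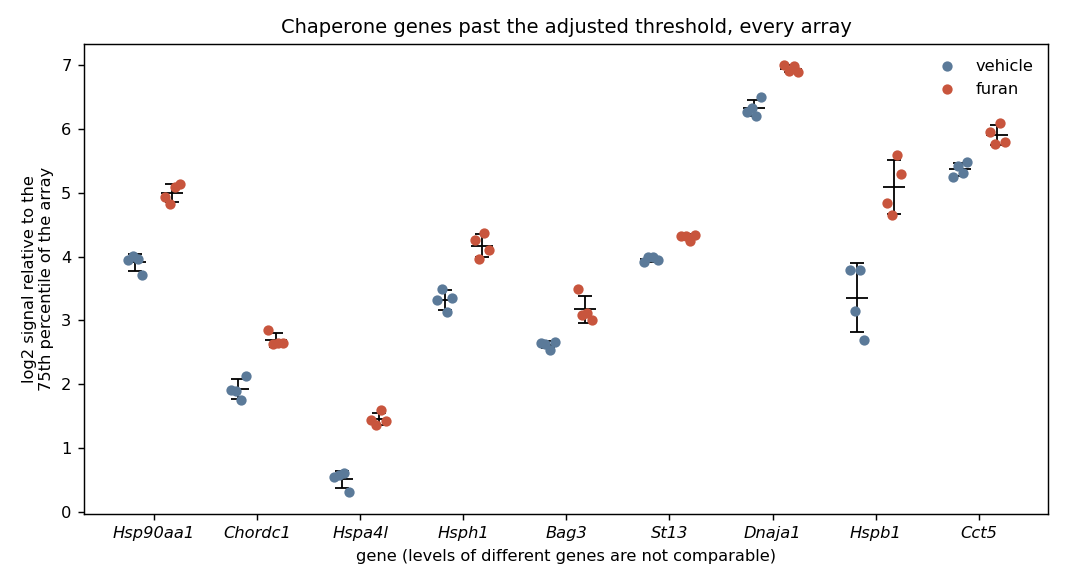
The plot shows the level of the 9 members that rose on every array (log2 signal relative to the 75th percentile of the array) as points, vehicle in blue and furan in red, with bars at the mean ± SD of 4 arrays. The groups do not overlap for any of the 9, and Hspb1 has both the widest spread and the widest gap.

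J proteins deliver clients to HSP70 and start its ATP hydrolysis. All 11 tested differences were positive, with a median of 0.32, and 1 gene rose. Those of Dnajc5 and Dnajc7 were small and turned negative without vehicle replicate 2 (-0.08 and -0.03), without furan replicate 41 (-0.04 and -0.02), with quantile normalization (-0.05 and -0.05) and with arrays shifted by their brightest 25% of genes (-0.08 and -0.05). Dnaja1, a main cytosolic partner of HSC70, was at 6.27, 6.32, 6.20 and 6.50 with vehicle and at 6.99, 6.90, 6.97 and 6.88 with furan, where the furan livers lay close together above all vehicle livers. It rose 1.53-fold (0.61 ± 0.09, adjusted p = 0.0167). It passed without vehicle replicate 2, 3 or 6. Its adjusted p was 0.0506 without vehicle replicate 4, and 0.0598, 0.0525, 0.0619 and 0.0513 without furan replicate 41, 42, 43 and 44. Dnajb1, the J protein most often used as a heat shock marker, was at 3.86, 4.27, 3.90 and 4.24 with vehicle and at 4.62, 4.24, 4.36 and 4.34 with furan. Its groups overlapped, and its difference was 0.32 ± 0.14 (adjusted p = 0.206). Dnajb4 (0.49 ± 0.12, adjusted p = 0.0589), Dnaja4 (0.52 ± 0.13, adjusted p = 0.0614) and Dnaja2 (0.42 ± 0.10, adjusted p = 0.0614) had groups that did not overlap but missed the threshold. The other 6, among them the synaptic vesicle J protein Dnajc5 and the ribosome-bound Dnajc2, lay between 0.01 and 0.38 with overlapping groups.

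Of the 4 small heat shock proteins tested, 1 rose, and it had the largest change of all members. Hspb1 (HSP25 in mouse), which holds unfolding proteins and binds actin filaments, was at 3.79, 3.15, 3.79 and 2.69 with vehicle and at 4.84, 4.64, 5.59 and 5.28 with furan. The vehicle livers spread over more than 1 log2 unit, yet the highest of them was below the lowest furan liver. Hspb1 rose 3.32-fold (1.73 ± 0.31, 95% interval 1.02 to 2.44, adjusted p = 0.0266). The call held without vehicle replicate 2 (adjusted p = 0.0311) and not without any other array: adjusted p was 0.0655, 0.0527 and 0.057 without vehicle replicate 3, 4 and 6, and 0.0702, 0.0529, 0.0755 and 0.0762 without furan replicate 41, 42, 43 and 44. Hspb8, the partner of BAG3, differed by 0.47 ± 0.14 (adjusted p = 0.102). Cryab (alpha B-crystallin) differed by 0.11 ± 0.08 and Hspb6 by 0.06 ± 0.12 (-0.02 with a shift by the brightest 25% and -0.04 with quantile normalization), and all 3 had overlapping groups. These genes are strongly expressed in muscle, and the muscle markers overlapped between the groups. The summed level of the 3 smooth muscle markers was 4.40 to 6.59 times the 75th percentile on the vehicle arrays and 4.34 to 5.75 times on the furan arrays. For skeletal muscle the sum over 2 markers was 0.102 to 0.885 and 0.0794 to 0.225, with Ckm and Myl1 not above background on enough arrays to be tested. The 2 markers, Acta1 and Tnnt3, were highest on vehicle replicate 2 (-1.03 and -1.34), and Acta1 was well above background on 1 furan array. The part of muscle tissue in the differences of these genes was not tested.

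None of the 5 mitochondrial members passed the threshold, while 2 (Hspe1 and Dnaja3) were higher at an unadjusted p under 0.05 and 4 of 5 differences were positive. Hspe1, the HSP10 lid of the mitochondrial folding chamber, was at 5.49, 5.79, 5.62 and 5.94 with vehicle and at 6.21, 6.10, 6.17 and 6.06 with furan. The groups did not overlap, by a narrow margin, and the difference was 0.43 ± 0.11 (adjusted p = 0.0736). Hspd1, the HSP60 chamber itself, shares its promoter with Hspe1 and differed by 0.22 ± 0.11 (adjusted p = 0.256), with overlapping groups. Dnaja3, a mitochondrial J protein, differed by 0.31 ± 0.10 (adjusted p = 0.108), Hspa9 (mortalin, the mitochondrial HSP70) by 0.27 ± 0.13 (adjusted p = 0.259) and Trap1, the mitochondrial HSP90, by -0.17 ± 0.14 (adjusted p = 0.456). With a shift to the array median the difference of Trap1 was 0.31.

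The CCT complex is a ring of related subunits that folds actin and tubulin. All 7 subunit genes of the set had positive differences, with a median of 0.30, and 1 rose. The subunit genes Cct6a and Cct6b are outside the set and are given with the other chaperone genes. Cct5 was at 5.25, 5.42, 5.31 and 5.48 with vehicle and at 5.95, 5.76, 6.09 and 5.79 with furan, with all furan livers above all vehicle livers. It rose 1.45-fold (0.53 ± 0.11, adjusted p = 0.0366), but without any 1 of the 8 arrays (vehicle replicate 2, 3, 4 or 6, furan replicate 41, 42, 43 or 44) its adjusted p lay between 0.0585 and 0.107. Cct3 differed by 0.54 ± 0.18 (adjusted p = 0.121), as much as Cct5 but with a larger error and overlapping groups. Cct2 differed by 0.40 ± 0.11 without overlap (adjusted p = 0.0815), and Cct7, Cct8, Tcp1 and Cct4 lay between 0.17 and 0.30 with overlap.

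The transcription factors themselves did not pass. Hsf1 was at 1.11, 1.38, 1.16 and 1.29 with vehicle and at 1.61, 1.48, 1.62 and 1.47 with furan, a difference of 0.31 ± 0.09 without overlap (adjusted p = 0.105). Hsf2 differed by -0.0036 ± 0.10 (95% interval -0.23 to 0.23), by 0.12 with no shift of the arrays and by 0.48 with a shift to the array median. At an unadjusted p under 0.05, Hsf1 was higher and Hsf2 was not. HSF1 is controlled mainly by binding partners, phosphorylation and movement to the nucleus, which an RNA measurement does not show.

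**Figure D3:**
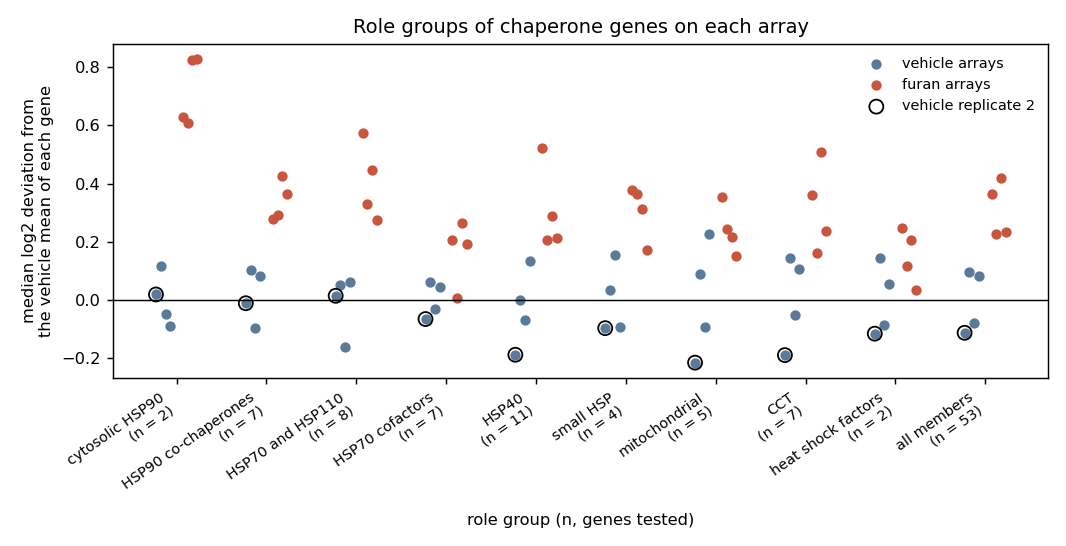
The plot shows, for each array, the median deviation of the genes of a role group from their own vehicle means (log2, vertical axis), with vehicle arrays in blue, furan arrays in red and vehicle replicate 2 ringed. Over all 53 members the vehicle arrays lie between -0.11 and 0.10 and the furan arrays between 0.23 and 0.42.

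Read by role, the medians of the differences were 0.72 for cytosolic HSP90, 0.39 for HSP70 and HSP110, 0.32 for HSP40, 0.30 for HSP90 co-chaperones and for CCT, 0.29 for small heat shock proteins, 0.27 for HSP70 cofactors and for mitochondrial chaperones, and 0.15 for heat shock factors. The mitochondrial median was 0.17 with the deposited values and with array weights, and that of the heat shock factors was 0.08 with quantile normalization, 0.07 with normexp and 0.07 with a shift by the brightest 25% of genes. The order of the groups moved as well: with normexp the HSP40 median was 0.17, below the mitochondrial one at 0.24. Differences between these medians were not tested, and the groups hold 2 to 11 genes. In each of the role groups with more than 2 genes, apart from the mitochondrial one, 1 or 2 genes rose and most of the others had a positive difference that did not pass. The furan livers differed among themselves: for HSP40 the group deviation was 0.52 in furan replicate 41 against 0.21 to 0.29 in the other 3, whereas for cytosolic HSP90 replicates 43 and 44 (both 0.83) were above 41 and 42 (0.63 and 0.61).

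Array position was followed too. Each of the 4 columns of the slide held 1 vehicle and 1 furan array, as far as the positions recorded with the scans show. The groups of the 9 members that rose did not overlap, so their differences had to be positive in every column and row. These signs are therefore no check of array position. Of the 53 members, 32 were higher in all 4 columns, and the share over all genes is not given. The rows of the slide held 2 vehicle and 2 furan arrays each. Within the rows the size of the difference varied, for example 1.28 and 0.89 for Hsp90aa1, 1.08 and 0.81 for Hspa4l and 2.19 and 1.27 for Hspb1. With slide row as a block 7 members passed, 6 of the 9 and Dnaja4. Bag3, St13 and Cct5 did not (adjusted p = 0.0635, 0.0593 and 0.0557). With slide column as a block, where 0 members passed, 0 of all 24921 genes did either in limma with Benjamini-Hochberg adjustment. At an unadjusted p under 0.05 that fit had 24 members higher, and 2398 genes higher and 2325 lower among all. The adjusted p of 0.0959 was that of Hsp90aa1 and Hspa4l.

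For 15 members more than 1 probe passed the background filter, 39 probes in all, and the values above are those of the brightest. All probes of a gene had the same sign in 10 of the 15. In Bag5, Dnaja4, Dnajb2, Dnajc8 and Cryab a dimmer probe had the other sign (-0.11, -0.48, -0.09, -0.23 and -0.02). None of these dimmer probes passed, and that of Dnaja4 was well above background on only 2 vehicle and 2 furan arrays. Adjusted over all 33848 probes kept, the second Hsph1 probe rose as well (0.75, adjusted p = 0.0371), whereas the second Dnaja1 probe differed by 0.25 (adjusted p = 0.269). The choice of probe decided what was seen for 2 constitutive genes. Of the 2 other Hspa8 probes, 1 rose (0.54, adjusted p = 0.0296) and the other did not pass (0.56, adjusted p = 0.052), beside 0.23 for the brightest. Both dimmer Dnajc5 probes rose, by 0.57 (adjusted p = 0.0314) and 0.85 (adjusted p = 0.00897), beside 0.01 for the brightest. Each of the other 7 members that rose had 1 probe kept, so no second probe bears on them. With this adjustment over probes Bag3 (adjusted p = 0.0532) and St13 (adjusted p = 0.0509) did not pass.

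**Figure D4:**
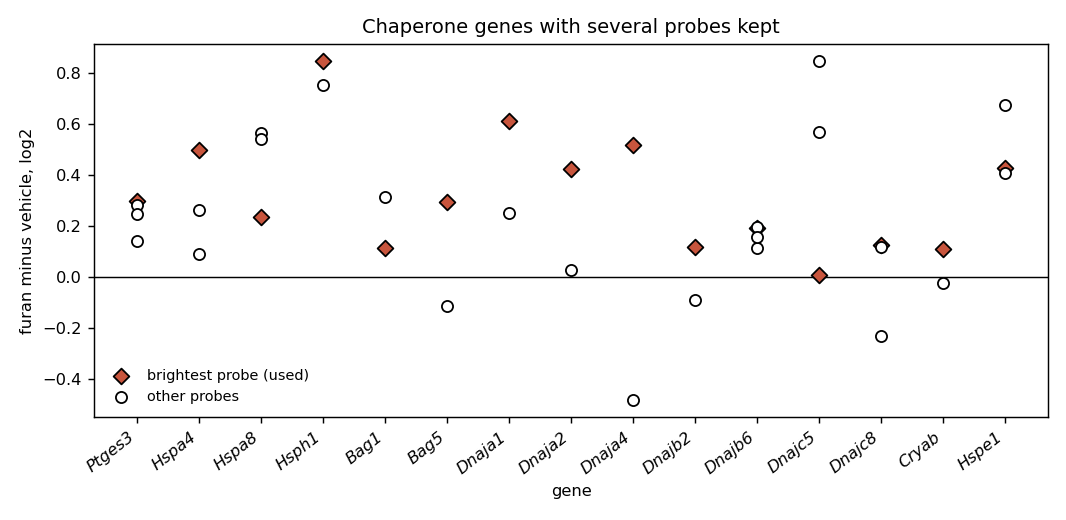
The plot shows the furan minus vehicle difference (log2) of every kept probe of the 15 members with several, with the brightest probe as a filled diamond and the others as open circles. Probes of Hsph1 lie close together at 0.85 and 0.75, while those of Dnajc5 range from 0.01 to 0.85. Those of Dnaja4 have opposite signs, and its dimmer probe was well above background on only 2 vehicle and 2 furan arrays.

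Set against the promoter stretches printed above, 7 of the 9 members that rose had a promoter in the RefSeq table, and 6 of these 7 (85.7%) held the 2-unit element: Chordc1, Hsph1, Hspb1, Dnaja1, Cct5 and Bag3. Hspa4l held none in the window, and it rose nearly as much as Hsp90aa1, whose promoter was not in the table. Among tested members that did not pass, 11 of 35 (31.4%) held the 2-unit element, beside 17.0% of all genes with a promoter. The 3-unit form was in 2 of the 7 (28.6%, Chordc1 and Hsph1) and in 3 of the 35 (8.57%, Dnajb6, Hspd1 and Hspe1). Its share over all genes with a promoter was 0.662%. Members with the element could also have small differences, such as Dnajb6, which holds 3 units and differed by 0.19 ± 0.19 (adjusted p = 0.528) with overlapping groups. These are counts over few genes, and no test was made of them.

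Other chaperone genes outside the set, also chosen with earlier results known, were followed for comparison. They were 59 genes in 4 lists, of which 54 were tested. Of these 54, 2 rose and 0 fell in limma with Benjamini-Hochberg adjustment, 14 were higher and 2 lower at an unadjusted p under 0.05, and 12 had every furan array above every vehicle array. Beside these counts, 2.87% of all genes tested rose (4.61% in the brighter 50%), 12.3% were higher and 11.5% lower at an unadjusted p under 0.05, and 10.8% were higher on every furan array. The difference was positive for 43 of the 54 and its median was 0.12, beside 0.30 for the 53 members. Among all genes tested 39.8% of differences were positive, with a median of -0.09. In the brighter 50% these were 59.9% and 0.06. Cacybp, an HSP90-binding adaptor of ubiquitin ligases, was at 3.34, 3.27, 3.25 and 3.15 with vehicle and at 3.85, 3.73, 3.92 and 3.82 with furan, without overlap. It rose 1.49-fold (0.58 ± 0.08, adjusted p = 0.0156). Its adjusted p was 0.0503, 0.0505, 0.0568, 0.0599 and 0.0516 without vehicle replicate 4, vehicle replicate 6, furan replicate 41, furan replicate 43 and furan replicate 44. Dnajb14, a J protein of the endoplasmic reticulum membrane that faces the cytosol, was at 2.78, 2.88, 2.90 and 2.96 with vehicle and at 3.24, 3.24, 3.31 and 3.32 with furan. It rose 1.31-fold (0.39 ± 0.08, adjusted p = 0.0361), with adjusted p from 0.0536 to 0.106 when any 1 of the 8 arrays was left out. None of the 10 genes listed as prefoldin and CCT partners passed (4 were higher and 0 lower at an unadjusted p under 0.05), with a median of 0.17. That list also holds the CCT subunit genes Cct6a (0.34, adjusted p = 0.154) and Cct6b (-0.12, adjusted p = 0.36). For Cct6b every furan array was below every vehicle array. By list, 1 of 19 further J proteins rose (median 0.08), 1 of 17 further HSP70 and HSP90 cofactors rose (median 0.13), and 0 of 8 further small heat shock proteins, heat shock factors and HSF1 targets did (median 0.11, 1 higher and 0 lower at an unadjusted p under 0.05). The 2-unit element was in 7 of the 46 of these genes with a promoter (15.2%), and the 3-unit form in 0. Over all genes with a promoter the shares were 17.0% and 0.662%.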

How the data were processed

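RNA from 8 mouse livers was measured on 1-colour Agilent arrays (design 028005). Per the file headers, the deposited spot intensities come from Agilent Feature Extraction 11.0.1.1, as a processed intensity after background subtraction and as median spot and background intensities. The value table deposited by the authors is in log2 units, by a method not given in the sources used here.

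Control and outlier spots were left out, the 75th percentile of each array was subtracted from its log2 processed intensities, and replicate spots were averaged. Probes well above background on at least 4 of 8 arrays were kept (33848 of 55681), with the brightest probe of each gene. Symbols came from RefSeq accessions through a table for GRCm38.p6 (27235 of 28685 probes matched). The test was the 2-sided moderated test of limma 3.58.1 (R 4.3.3), adjusted over 24921 by Benjamini-Hochberg and tested on simulated data first. It had 1 group term, because the blocks of the randomized design are not in the labels. The number of arrays limits the precision.

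The members and all lists were chosen with earlier results of these data known. Values per array are given for members past the threshold, for the smallest adjusted p of each role group, and for Hspa1a, Hsp90ab1, Hspa8, Dnajb1, Hsf1 (Hspa1b had no probe). Bag4 and the other members named with values were described in addition. Of the other lists, genes past the threshold are named, and Cct6a and Cct6b in addition. Alternatives covered the scaling, background correction, the deposited table, the filter, probe choice, variance model, array weights, slide position and leaving out each array.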

Additional observations from a re-analysis of the deposited data

Results flagged for a closer look

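Of 110 gene groups checked (the 53 tested members, Cacybp and Dnajb14, each with 4 vehicle and 4 furan arrays), 4 had 1 array far from the other 3, where chance alone flags about 1 in 20 groups. Chordc1 was at 2.85 on furan replicate 41, and the nearest other furan array was at 2.64. St13 was at 4.25 on furan replicate 43, below the nearest at 4.33. In the vehicle group, replicate 2 was the distant array for Hspa1l, at -1.91 against -3.30 for the nearest, and for Dnaja3, at 4.69 against 4.96. Without vehicle replicate 2 the difference of Hspa1l was -0.34 (adjusted p = 0.54) and that of Dnaja3 was 0.24 (adjusted p = 0.132, limma). The part of that array's raised dim signals in these values was not tested.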

How the results depend on the processing

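No alternative reversed a member that passed, and the median difference of the members was positive under all of them, while the counts moved. Hsp90aa1 and Hspa4l held in 12 of 14 other settings each, failing with a median shift and with slide column as a block. Of the same 14 settings, Chordc1, Hsph1 and Hspb1 held in 11 each, Dnaja1 in 10, Cct5 in 9, Bag3 in 6 and St13 in 5. With quantile normalization 9 members passed, of which 7 were among the main 9, and Dnajb4 and Hspa4 were added. Counts are members higher, then all genes higher and lower: 1, 84 and 1 with a median shift; 4, 230 and 31 with no shift; 2, 124 and 39 with no filter; 18, 1437 and 564 with a trended, robust variance; 0, 0 and 0 with slide column as a block; and 2, 82 and 19 at an adjusted p under 0.01. All genes higher and lower numbered 1155 and 578 with a filter on all arrays, 1250 and 818 with array weights and 1109 and 559 in the deposited table. A shift by the brightest 25% of genes gave 673 lower, with 1 member (Bag4, adjusted p = 0.0293). Leaving out 1 array gave 2 to 8 members higher, 142 to 603 genes higher and 48 to 324 lower. A fit of the brighter 50% of genes, chosen after seeing the data, gave 22 members higher and 1 lower. The counts over all genes in that fit are not given, so the 22 cannot be set against a share of all genes.

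Medians with a median shift were 0.78 for the members, 1.21 for HSP90, 0.78 for HSP90 co-chaperones, 0.88 for HSP70, 0.76 for HSP70 cofactors, 0.80 for HSP40, 0.77 for small HSP, 0.75 for mitochondrial, 0.78 for CCT and 0.63 for heat shock factors. With no shift they were 0.42 for the members, 0.85 for HSP90, 0.42 for co-chaperones, 0.52 for HSP70, 0.40 for cofactors, 0.41 for small HSP and 0.28 for heat shock factors. Heat shock factors were lower, at 0.08 with quantile normalization, 0.07 with normexp and 0.07 with the shift by the brightest 25%, and mitochondrial genes were at 0.17 with the deposited values and with array weights. Co-chaperones were at 0.22 with quantile normalization, 0.21 with the shift by the brightest 25% and 0.21 with the deposited values, and cofactors at 0.18 with quantile normalization, 0.17 with normexp and 0.18 with the deposited values. HSP40 was at 0.17 with normexp and with the deposited values, and small HSP at 0.17 with normexp. Leaving out 1 array moved cofactors from 0.17 to 0.30. Apart from the smaller sample when an array is left out, the cause was not tested. The groups share no replicate number, so numbers pair no arrays, and slide column as a block is the only fit that pairs a vehicle with a furan array.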
